A study of Homo sapiens with 15 samples.

Results

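Androgen is best known for switching genes on in prostate cells, but a smaller group of genes makes less RNA once androgen is present. The 5 genes described here, OPRK1, DDC, MET, CAMK2N1 and SERPINI1, are known members of that repressed group. The rule that names them uses this knowledge and no contact value, and what was read for each is the set of chromatin loops with an anchor at its promoter. Of 505995 different loops in the series, 162 met this rule: 71 at SERPINI1, 52 at CAMK2N1, 33 at OPRK1, 6 at MET and 0 at DDC. The promoter reached 2.5 kb to each side of where the canonical transcript starts (Gencode release 44 on hg19), and at least 1 bp of a 1 kb anchor had to lie in it. The starts lie at base 54164197 of chromosome 8 (OPRK1, minus strand), 50633102 and 116312250 of chromosome 7 (DDC, minus, and MET, plus), 20812703 of chromosome 1 (CAMK2N1, minus) and 167453509 of chromosome 3 (SERPINI1, plus).

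The loops come from HiChIP in LNCaP, an established androgen-responsive line derived from prostate cancer. In HiChIP, DNA ends that lie close together in fixed nuclei are ligated, and the fragments carrying a histone mark are pulled down and sequenced as read pairs. The 5 groups of each mark are 0 m (ethanol vehicle) and 30 m, 4 h, 16 h and 72 h of 10 nM dihydrotestosterone (DHT), all in cells first kept in charcoal-stripped serum, which lacks steroids. There were 2 labelled H3K27ac samples and 1 labelled H3K4me3 sample at each time. The deposited tables give each loop 1 contact value for a mark and time, so that no value has a replicate error and no test between times was possible. Contact is a count of read pairs, brought to a common scale among the times of a mark by TMM, a normalization that assumes most loops do not change, and all intervals below are exact 95% intervals of the read pairs behind it, which cover counting error only.

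H3K27ac marks active enhancers and promoters, and H3K4me3 marks promoters that are open for transcription. A loop read with H3K27ac therefore weighs enhancer contacts, and one read with H3K4me3 weighs contacts of the promoter itself. A lower contact can come from fewer cells with the contact, from fewer contacts per cell or from less of the mark at an anchor. Contact values of bulk chromatin alone do not tell these apart. The study also measured both marks by ChIP-seq and states that their changes bias contact little, and its ChIP-seq values were not read here. The genes have unlike products. OPRK1 is the kappa opioid receptor and MET is the receptor tyrosine kinase for hepatocyte growth factor. DDC is the decarboxylase that makes dopamine and serotonin. CAMK2N1 inhibits the calcium/calmodulin-dependent kinase CaMKII, and SERPINI1 (neuroserpin) inhibits the protease tissue plasminogen activator.

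The libraries held between 2153262 and 10675614 read pairs on loops, with the H3K4me3 library of 4 h the deepest. The promoters of the 4 luminal prostate markers KLK3, KLK2, HOXB13 and FOLH1 had at least 50 read pairs in every comparison. Those of the basal markers KRT5, KRT14 and TP63 had 0 loops. The neuroendocrine markers CHGA, SYP and INSM1 had loops, and 0 of the 3 reached 50 read pairs in any comparison.

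The promoter sequences show how different the starting points of the genes are. The bases just upstream of the start are given for 4 genes, 5′ to 3′ on the strand of the gene in the GRCh37 reference, with each CG dinucleotide in capitals. They are shown because the gene with no promoter loop, DDC, has the fewest CG sites.
DDC, chr7:50633103-50633352, minus strand: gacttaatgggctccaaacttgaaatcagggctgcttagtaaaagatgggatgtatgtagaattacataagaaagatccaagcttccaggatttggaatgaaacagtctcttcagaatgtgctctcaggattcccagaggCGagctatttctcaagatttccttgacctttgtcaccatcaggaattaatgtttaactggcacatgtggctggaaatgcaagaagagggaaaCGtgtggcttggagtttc
SERPINI1, chr3:167453259-167453508, plus strand: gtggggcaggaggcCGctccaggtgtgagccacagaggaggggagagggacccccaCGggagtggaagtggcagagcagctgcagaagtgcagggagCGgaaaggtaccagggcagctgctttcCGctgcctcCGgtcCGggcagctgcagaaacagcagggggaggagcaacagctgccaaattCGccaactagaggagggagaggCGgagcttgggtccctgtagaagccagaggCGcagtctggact
MET, chr7:116312000-116312249, plus strand: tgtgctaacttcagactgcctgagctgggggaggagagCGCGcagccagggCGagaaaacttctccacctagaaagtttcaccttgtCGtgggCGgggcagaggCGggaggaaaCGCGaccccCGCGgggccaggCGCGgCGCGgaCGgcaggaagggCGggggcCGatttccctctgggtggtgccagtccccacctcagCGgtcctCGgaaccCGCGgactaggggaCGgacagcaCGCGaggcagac
CAMK2N1, chr1:20812704-20812850, minus strand: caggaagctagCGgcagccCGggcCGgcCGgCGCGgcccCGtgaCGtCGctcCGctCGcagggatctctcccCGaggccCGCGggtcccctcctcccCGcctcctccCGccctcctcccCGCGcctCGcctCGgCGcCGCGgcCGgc
The CAMK2N1 stretch stops at 147 bases because exons of other transcripts of the gene begin there. Over the whole 250 bases, DDC had 2 CG sites, SERPINI1 9, MET 24, OPRK1 32 and CAMK2N1 38, against a median of 18 over 19862 protein-coding promoters. Fewer CG sites than DDC were found in 7.5% of promoters, and fewer than CAMK2N1 in 95.3%. Promoters with at most 5 CG sites, a limit set after the DDC sequence was seen, had no loop in 46.3% of cases, and the others in 10.4%. SERPINI1, with 9 CG sites where 27.8% of promoters had fewer, had 71 loops, the most of the 5 genes. The part of CG sites in the absence of a DDC loop was not tested.

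Each 5 kb bin that holds a start was also read for GATC, the site of the enzyme MboI that cuts the chromatin before ligation. DDC had 9 sites in its bin, OPRK1 12, MET and CAMK2N1 10 each and SERPINI1 7, beside a median of 14 over 210061 bins with a loop anchor (quartiles 11 and 16). The counts of DDC, MET, CAMK2N1 and SERPINI1 were under the lower quartile, and the part of cutting sites in the absence of a DDC loop was not tested.

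The contact at 0 m set the genes far apart, and CAMK2N1 and SERPINI1 exchanged places between the marks. With H3K27ac the summed contact was 128 at CAMK2N1 (interval 116 to 140), 32 at SERPINI1 (26.3 to 38.6), 7.64 at OPRK1 (4.99 to 11.2) and 5 at MET (2.91 to 8). The intervals of OPRK1 and MET overlapped. With H3K4me3 the sum was 135 at SERPINI1 (123 to 147), 93.1 at CAMK2N1 (83.3 to 104), 21.4 at OPRK1 (16.9 to 26.8) and 3.1 at MET (1.55 to 5.55), and no neighbours in this order overlapped. DDC had no loop, so that no contact was counted at its promoter in any of the 10 tables.

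Divided by the number of loops, the H3K27ac contact at 0 m was 2.46 per loop at CAMK2N1, 0.833 at MET, 0.451 at SERPINI1 and 0.232 at OPRK1, where the mean of all loops was 1.44. The H3K4me3 contact per loop was 1.9 at SERPINI1, 1.79 at CAMK2N1, 0.65 at OPRK1 and 0.517 at MET, with a mean of 1.43 over all loops. CAMK2N1 was thus above the mean of the series in both marks, SERPINI1 in H3K4me3, and OPRK1 and MET in neither.

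**Figure D1:**
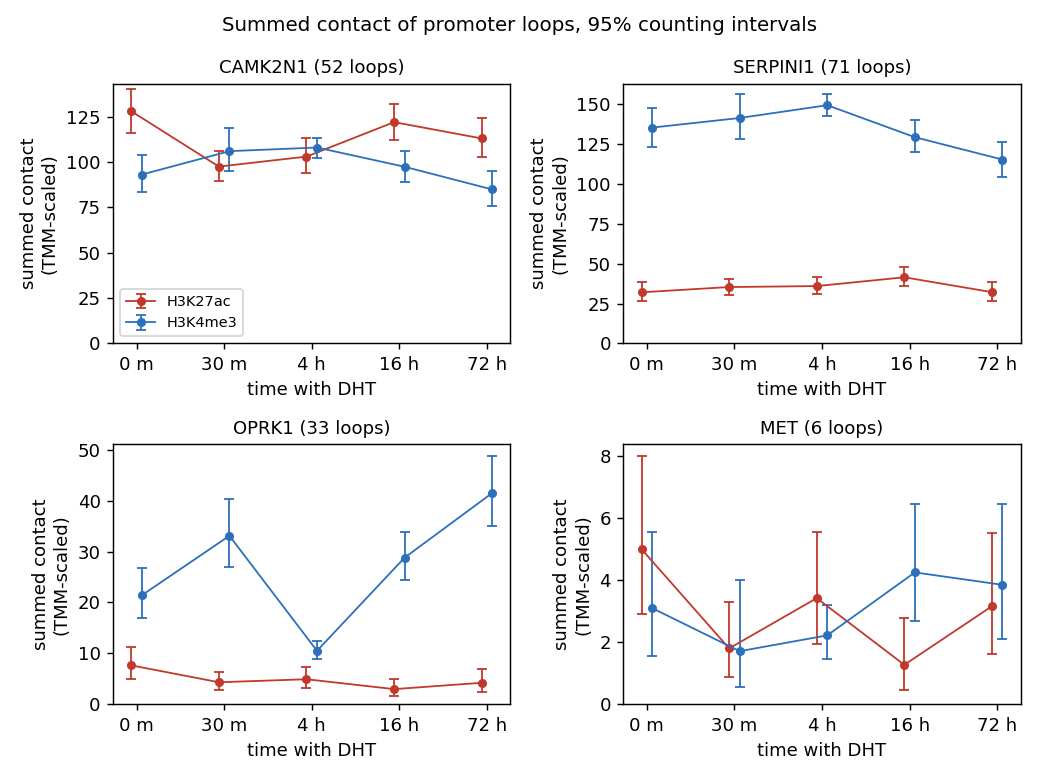
Summed TMM-scaled contact of the promoter loops of 4 genes (vertical axis, from 0) at each time with DHT (horizontal axis), with H3K27ac in red and H3K4me3 in blue and bars for 95% counting intervals. The H3K27ac sum of CAMK2N1 went from 128 at 0 m to 97.5 at 30 m, and the H3K4me3 sum of OPRK1 moved between 10.5 and 41.5.

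For the change with DHT, a promoter counts as lower or higher where its summed contact differs by at least 1.5-fold from 0 m, among promoters with at least 50 read pairs over both times. With H3K27ac, 1 of the 3 genes that reached 50 read pairs was lower at 30 m, where 3.21% of all such promoters were. At 4 h 0 of 2 were lower (background 0.999%), at 16 h 0 of 2 (7.97%) and at 72 h 0 of 2 (5.82%). None of these genes was higher with H3K27ac at any time. Of all promoters 18.8% were higher at 30 m, 3.71% at 4 h, 18.5% at 16 h and 17.9% after 72 h. With H3K4me3, 3 genes reached 50 read pairs at each time. Of these, 0 were lower at 30 m (background 1.36%), 1 at 4 h (2.59%), 0 at 16 h (0.52%) and 0 at 72 h (6.03%). With the same mark 1 was higher at 30 m (0.872%), 0 at 4 h (14.8%), none at 16 h (3.91%) but 1 at 72 h (1.39%). All 4 of these calls were of OPRK1. Each change of a mark is taken from the same 0 m value, so the times are not independent of each other.

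The scale matters for shallow changes. If each library of a mark is brought to the same total of read pairs in place of TMM, every H3K27ac change below is lower by 0.09 at 30 m, 0.07 at 4 h, 0.25 at 16 h and 0.17 after 72 h on the log2 scale. Every H3K4me3 change is then lower by 0.02, 0.22 and 0.14 at 30 m, 4 h and 16 h and higher by 0.13 at 72 h. Statements below that an interval held 0 or lay on one side of it are for TMM unless equal totals are named. The counts of the repressed genes were the same on this scale at all times and in both marks. The background was not. With H3K27ac the promoters lower and higher became 4.7% and 12.3% at 30 m, 1.62% and 2.58% at 4 h, 17.2% and 7.92% at 16 h, and 10.5% and 9.3% at 72 h. With H3K4me3 they became 1.59% and 0.688% at 30 m, 6.56% and 5.87% at 4 h, 1.44% and 1.73% at 16 h, and 2.16% and 2.78% at 72 h.

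CAMK2N1, the CaMKII inhibitor, had the best counted promoter with H3K27ac, with 2464 read pairs. Its summed H3K27ac contact was 128 at 0 m, 97.5 at 30 m, 103 at 4 h, then 122 at 16 h and 113 at 72 h. The vehicle value was the highest of the 5, and the values of 30 m and 4 h were the lowest. The log2 change was -0.39 at 30 m (interval -0.58 to -0.20) and -0.31 at 4 h (-0.50 to -0.12), and both intervals lay under 0. At 16 h it was -0.07 (-0.25 to 0.11) and at 72 h -0.18 (-0.37 to 0.02), intervals that held 0 with TMM. With equal totals these later changes were -0.32 (-0.50 to -0.13) and -0.35 (-0.54 to -0.15), with both intervals under 0. The median promoter changed by 0.27 at 30 m, 0.04 at 4 h and by 0.16 and 0.17 at the later times. Lower changes than that of CAMK2N1 were found in 6.81% of promoters at 30 m, 8.58% at 4 h, then 33% at 16 h and 22.3% at 72 h. None of these differences reached 1.5-fold. Of its 52 loops, 33 had less H3K27ac contact than in vehicle at each early time (30 m, 4 h). The counts for the later times were 28 and 31. How many of all loops were lower was not computed, so these counts lack a background, and loops of the same promoter are not replicates.

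With H3K4me3 the same 52 loops summed to 93.1 at 0 m, 106 at 30 m, 108 at 4 h, then 97.4 at 16 h and 84.9 at 72 h. The change at 4 h was 0.21 (0.03 to 0.39), close to the 0.22 of the median promoter and -0.01 with equal totals (-0.19 to 0.16), and those at 30 m (0.19), 16 h (0.07) and 72 h (-0.13) had intervals that held 0. At 30 m the marks thus gave changes of opposite sign at CAMK2N1 on both scales, and at 4 h with TMM alone.

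**Figure D2:**
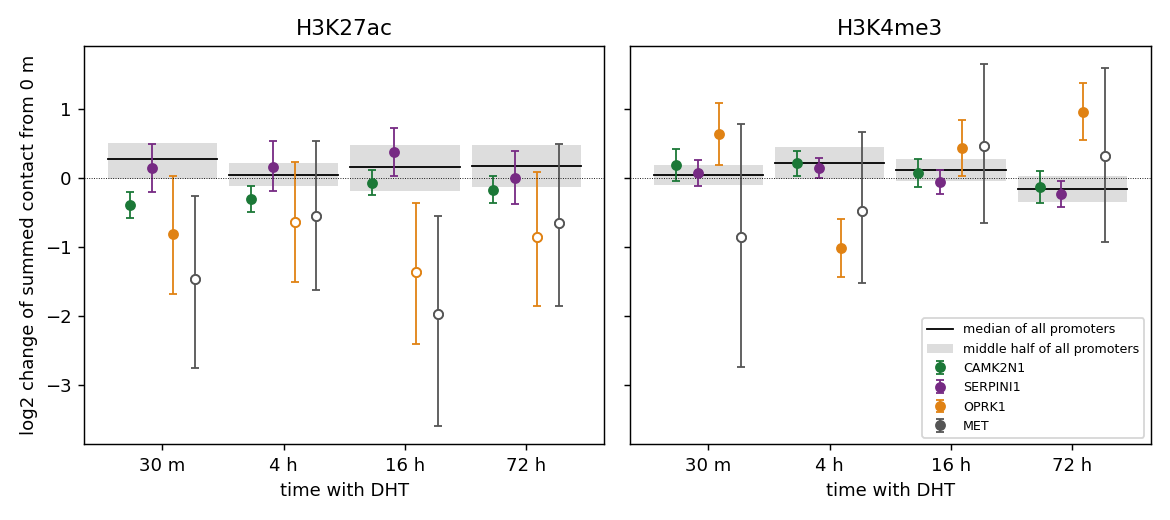
Log2 change of summed contact from 0 m (vertical axis) at each time with DHT, H3K27ac on the left and H3K4me3 on the right. Dots are genes with 95% counting intervals, open dots have under 50 read pairs, grey bars run from the lower to the upper quartile of all promoters with at least 50 read pairs and black lines their median. With H3K27ac, CAMK2N1 lay under the grey bar at 30 m (-0.39), 4 h (-0.31) and 72 h (-0.18), while with H3K4me3 OPRK1 lay on either side of it.

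Nearly all loops of CAMK2N1 pointed one way, and its H3K27ac contact was more concentrated than its H3K4me3 contact. The other anchors of 49 loops lay downstream of the gene and those of 3 upstream. The 3 strongest loops held 53.7% of the mean H3K27ac contact and 38.4% of the H3K4me3 contact, and 30 of the 52 had a mean H3K4me3 contact of 1 or more against 21 with H3K27ac. The loop with the most read pairs (1159) reached the neighbouring bin 5.203 kb downstream and was called in the H3K4me3 set. The loop with the next most (855) reached the bin 4.797 kb upstream and was called in the H3K27ac set. The third (400 read pairs, both sets) spanned 235 kb to an anchor at chr1:20577001-20578000, outside any protein-coding gene.

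The strongest loop had H3K27ac contacts of 30.9 at 0 m, 19.3 at 30 m, 25.2 at 4 h, then 33.1 at 16 h and 34.5 at 72 h. Its lowest value was that of 30 m, with a log2 change of -0.68 (-1.08 to -0.28). The upstream loop had 24.4, 18.4, 15, 25.7 and 19.2 at the same times, lowest at 4 h with a change of -0.71 (-1.19 to -0.23). With H3K4me3 the upstream loop went the other way, from 11.3 at 0 m to 17.2 at 4 h, a change of 0.61 (0.12 to 1.13). With equal totals this H3K4me3 change is under 1.5-fold and its interval holds 0. The loop of 235 kb had H3K27ac contacts of 13.5, 9.54, 12, 12.1 and 10, and each of its changes had an interval that held 0.

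A single loop is called where it has at least 50 read pairs over both times, changed by at least 1.5-fold and has an interval on one side of 0. Of 48 such comparisons, over 15 loops of the genes, 2 were lower and 1 was higher, and these are the 3 changes of CAMK2N1 loops just given. Among all loops of the series with at least 50 read pairs over both times, 5.67% were lower with H3K27ac at 30 m and 1.92% at 4 h. With H3K4me3 at 4 h, 15.3% of such loops were higher. Over all marks and times together, 4.38% of such comparisons were lower and 17.7% higher.

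The short and the long loops of CAMK2N1 were also summed apart, and whether they differ was not tested. The 3 loops under 20 kb summed to H3K27ac contacts of 58.8 at 0 m, 40.8 at 30 m, 43.2 at 4 h, then 62 at 16 h and 57.6 at 72 h. They were lower at 30 m (-0.52, -0.81 to -0.24) and at 4 h (-0.45, -0.73 to -0.16) and differed by 0.08 and -0.03 at 16 h and 72 h. All loops under 20 kb of the series had higher H3K27ac contact than at 0 m, by 0.26 at 30 m, 0.22 at 4 h, then 0.55 at 16 h and 0.41 at 72 h on the log2 scale. The 49 longer loops of CAMK2N1 gave 69.1, 56.7, 60, 59.9 and 55.5, with changes of -0.28 at 30 m (-0.53 to -0.03) and -0.31 at 72 h (-0.59 to -0.04). The corresponding changes over all loops of 20 kb or more were -0.04 and -0.03. With H3K4me3 the 3 short loops summed to 29.3, 38.6, 42.5, 35 and 31.9, above vehicle at each time, with changes of 0.40 at 30 m (-0.00 to 0.79) and 0.53 at 4 h (0.23 to 0.85). The longer loops gave 63.7, 67.6, 65.1, 62.4 and 53, with intervals that held 0 at each time. All loops under 20 kb changed by 0.05 and 0.26 with H3K4me3 at 30 m and 4 h.

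**Figure D3:**
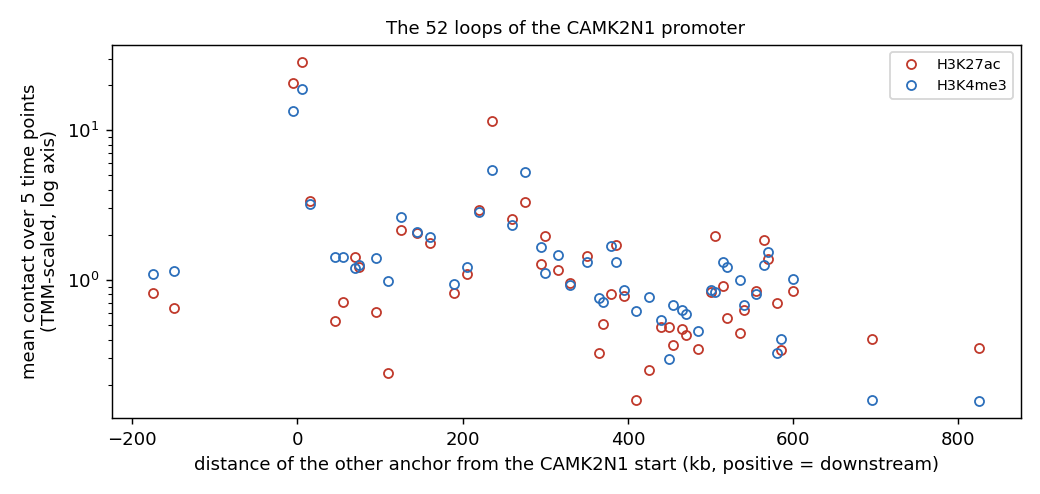
Mean contact over the 5 times (vertical log axis) of each of the 52 CAMK2N1 loops by the distance of its other anchor from the start (horizontal axis, kb, downstream positive), H3K27ac in red and H3K4me3 in blue. The neighbouring bins stand highest (28.6 with H3K27ac for the downstream one), followed by the anchor at 235 kb (11.4), and 3 anchors lie upstream.

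Loops of CAMK2N1 touched 7 other promoters. Those with the most read pairs were PLA2G2C and UBXN10, which share an anchor about 300 kb downstream (79 read pairs), and PLA2G2E at 562.6 kb (71). PLA2G2C and PLA2G2E encode secreted phospholipases. The anchor shared by PLA2G2C and UBXN10 has 10 loops in all, whose H3K27ac contact was 11.5 at 0 m, 8.28 at 30 m, 8.12 at 4 h, then 7.86 at 16 h and 8.68 at 72 h. The vehicle value was again the highest, but each interval of the change held 0.

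SERPINI1, neuroserpin, cannot be separated from its neighbour. Its start lies 829 bp from that of PDCD10, a gene of vascular integrity transcribed the other way, and all 71 loops of SERPINI1 are loops of PDCD10 too. What follows describes this shared promoter. It was mostly a promoter of the H3K4me3 set, in which 54 of the 71 loops were called alone, against 7 in the H3K27ac set alone and 10 in both.

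The summed H3K4me3 contact of SERPINI1 was 135 at 0 m, 141 at 30 m, 149 at 4 h, then 129 at 16 h and 115 at 72 h. The lowest value was that of 72 h, with a log2 change of -0.23 (-0.43 to -0.04), and the median promoter changed by -0.16 at that time. With equal totals this change was -0.11 (-0.30 to 0.09), while that of 16 h was -0.20 (-0.37 to -0.02). With TMM the changes at 30 m (0.07), 4 h (0.14, or -0.08 with equal totals) and 16 h (-0.06) had intervals that held 0. With H3K27ac the sums were 32, 35.3, 35.9, 41.4 and 32.1, and the highest, that of 16 h, changed by 0.37 (0.02 to 0.72), beside 0.16 for the median promoter, and by 0.12 with equal totals (-0.22 to 0.47). No H3K27ac value of SERPINI1 was under that of vehicle with TMM.

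The strongest loop of SERPINI1 (958 read pairs) joined it to the bin 6.009 kb upstream, inside PDCD10. Its H3K4me3 contact was 27.4 at 0 m, 25.6 at 30 m, 30.3 at 4 h, then 25.9 at 16 h and 21.2 at 72 h. The next loop, 16.009 kb upstream, had 9.31, 12.6, 11.3, 6.57 and 7.7. Every interval of these changes held 0. Among promoters at the other anchors, ZBBX (355.4 kb, 74 read pairs) and SERPINI2, the related serpin gene (261.7 kb, 33 read pairs), had the most read pairs.

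OPRK1, the kappa opioid receptor, held all 4 calls, and its promoter loops were weak. All 33 were called in the H3K4me3 set alone and spanned 25 to 750 kb, none of them under 20 kb. They held 606 read pairs with H3K4me3 and 103 with H3K27ac. The strongest loop took 7.17% of the H3K4me3 contact, so that no single loop carried the sum. At 0 m the loops held 0.454 times the mean H3K4me3 contact of all loops.

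The summed H3K4me3 contact of OPRK1 was 21.4 at 0 m, 33.1 at 30 m, 10.5 at 4 h, then 28.8 at 16 h and 41.5 at 72 h. The value of 4 h was the lowest and that of 72 h the highest, and their intervals (8.82 to 12.5 and 35.1 to 48.7) did not overlap that of vehicle. The log2 change was 0.63 at 30 m (0.18 to 1.08), -1.02 at 4 h (-1.44 to -0.60), 0.43 at 16 h (0.02 to 0.84, or 0.29 with equal totals, -0.12 to 0.71) and 0.95 at 72 h (0.55 to 1.37). Of the 33 loops, 25 had less contact at 4 h than in vehicle. At every other time 23 or 24 had more, 16 h included, although 16 h had no call. The share of all loops in either direction was not computed, so these counts have no background. The value of 4 h comes from the deepest library, in which 1 read pair is worth 0.0792, against 0.193 to 0.342 in the other H3K4me3 libraries, and the part of depth in it was not tested. The series holds 115918 weak loops of the H3K4me3 set alone (mean H3K4me3 contact under 1, 25 to 750 kb), the kind to which 25 of the 33 belong. Their mean H3K4me3 contact changed by -0.01, 0.28, 0.18 and 0.10, so that OPRK1 went against them at 4 h.

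With H3K27ac the same loops summed to 7.64 at 0 m, 4.32 at 30 m, 4.91 at 4 h, then 2.97 at 16 h and 4.21 at 72 h. The vehicle value was the highest and that of 16 h the lowest, at 14 read pairs. The change at 30 m was -0.82 (-1.69 to 0.03), or -0.92 with equal totals (-1.78 to -0.06). It counts as lower on exactly 50 read pairs, the least that a call requires. The change at 16 h was -1.36 (-2.41 to -0.37), on fewer read pairs. Over the 115918 weak loops the H3K27ac contact changed by -0.09, -0.08, -0.24 and -0.14. The only other promoter that OPRK1 loops touched was ATP6V1H, a subunit of the vacuolar proton pump, 591.6 kb away (30 read pairs).

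MET, the growth factor receptor, had too few read pairs for a call at any time. Its 6 loops all reached downstream, 10 to 190 kb away. The H3K27ac sum was 5 at 0 m, 1.8 at 30 m, 3.42 at 4 h, then 1.27 at 16 h and 3.16 at 72 h, from 17, 10, 16, 6 and 12 read pairs. The vehicle value was the highest, with log2 changes of -1.47 at 30 m (-2.76 to -0.26) and -1.97 at 16 h (-3.60 to -0.56), while the intervals at 4 h and 72 h held 0. With the loops of every annotated start of MET, 10 in all, these changes were -1.04 at 30 m, on 52 read pairs, and -1.24 at 16 h, on 46. The H3K4me3 sums were 3.1, 1.71, 2.22, 4.25 and 3.85, and no interval of a change was on one side of 0.

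The loop of MET with the most read pairs (51) ended 10.25 kb downstream inside MET and was called in the H3K27ac set. Its next loop (27 read pairs) joined it to the promoter of CAPZA2, an actin capping protein gene 190.4 kb away. Among genes with a promoter within 500 kb, CAPZA2 is also the nearest downstream. The H3K27ac contact of CAPZA2 was 43.2 at 0 m, 43 at 30 m, 29.9 at 4 h, then 49.7 at 16 h and 54.5 at 72 h, so that it was lowest at 4 h (-0.53, -0.87 to -0.19) and highest at 72 h (0.33, 0.02 to 0.65). On the other side, CAV1 (147.2 kb) had 5.58, 5.22, 5.56, 5.73 and 6.84.

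DDC, the decarboxylase, had no loop at its canonical start. The tables list called loops alone, so that this sets no upper limit on the contact there. Starts of other transcripts of DDC had between 0 and 15 loops. The nearest with a loop, 4334 bp downstream, had 1, of 15 H3K27ac and 14 H3K4me3 read pairs. The one with the most, 85441 bp downstream, had 15 loops, of 600 and 183 read pairs, and one 105720 bp downstream had 5, of 148 and 129. The body of the gene was full of loops. The gene runs from chr7:50526134 to 50633102 on the minus strand, and 18 of its 22 bins held an anchor, with 175 loops in all. Of these 146 were called in the H3K27ac set alone, 19 in the H3K4me3 set alone and 10 in both. Loops inside gene bodies are outside the rule that chose the promoter loops and were read after the values were known.

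Together, the DDC body loops had an H3K27ac contact of 434 at 0 m, 318 at 30 m, 363 at 4 h, then 414 at 16 h and 329 at 72 h. The vehicle value was the highest, with log2 changes of -0.45 at 30 m (-0.55 to -0.35), -0.26 at 4 h (-0.36 to -0.15), -0.07 at 16 h (-0.16 to 0.03) and -0.40 at 72 h (-0.51 to -0.29). Over the bodies of 9529 genes with at least 50 read pairs the median change at 30 m was 0.08, and 13.5% of genes had a lower change than DDC. The shares under DDC were 11.3% at 4 h, 41.4% at 16 h and 15.7% at 72 h. With H3K4me3 the body held 40.6, 39.3, 45.7, 57 and 58.3, and was higher at 16 h (0.49, 0.20 to 0.79) and at 72 h (0.52, 0.21 to 0.84). The median H3K4me3 change over gene bodies was 0.14 at 16 h and -0.06 at 72 h, and 87.2% and 94.1% of genes had a lower change than DDC.

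The loops of DDC did not all go one way. The anchor with the most contact at 0 m lay 75.6 kb downstream of the start, toward the 3′ end, with 29 loops. Its H3K27ac contact was 118 at 0 m, 63 at 30 m, 81 at 4 h, then 92.4 at 16 h and 68.4 at 72 h, and every interval of its changes lay under 0, from -0.91 at 30 m (-1.12 to -0.70) to -0.36 at 16 h (-0.56 to -0.16). The next anchor, 80.6 kb downstream, had 85.5, 46.4, 62, 66.5 and 54.7, again with all 4 intervals under 0. An anchor 50.6 kb downstream went from 46.4 at 0 m to 55.4 at 30 m, 49.1 at 4 h, then 84.3 at 16 h and 64.7 at 72 h, higher than vehicle at 16 h (0.86, 0.59 to 1.14) and 72 h (0.48, 0.19 to 0.78). The anchor at 95.6 kb had 54.9, 53.3, 48.1, 52.4 and 44.7, with intervals that held 0. These are the 4 anchors with the most H3K27ac contact at 0 m, and a loop with both ends in the gene counts at both of its anchors.

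**Figure D4:**
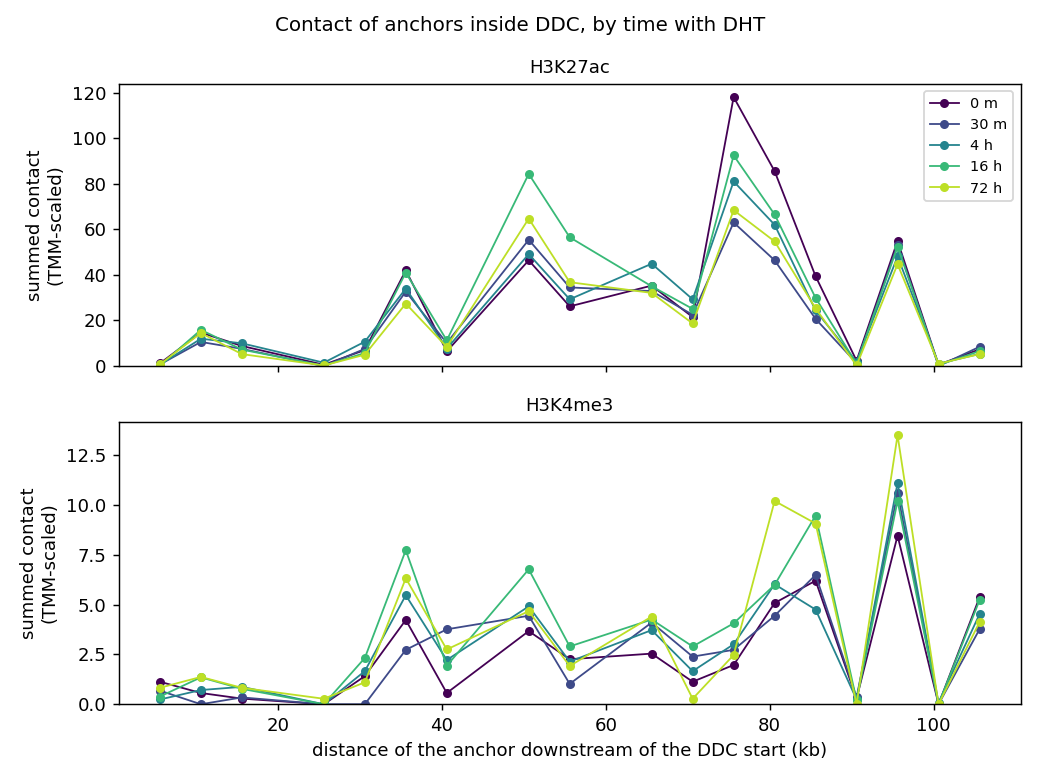
Summed contact (vertical axis, TMM-scaled) of each anchor inside DDC by its distance downstream of the canonical start (horizontal axis, kb), 1 line per time with DHT, H3K27ac above and H3K4me3 below. At 75.6 kb the vehicle line is the highest (118) and that of 30 m the lowest (63), and at 50.6 kb the line of 16 h is the highest (84.3). The lower panel has a smaller axis, with no value above that of 72 h at 95.6 kb (13.5).

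The strongest single loop with one end in DDC and one outside joined the anchor at 75.6 kb to one 34.398 kb upstream of the start, 110 kb apart (366 read pairs). The neighbours of DDC on either side had their own courses. FIGNL1, a gene of DNA repair 115.1 kb downstream, had an H3K27ac contact of 65.2 at 0 m, 56.3 at 30 m, 63.7 at 4 h, then 49 at 16 h and 45.5 at 72 h, lower than vehicle at 16 h (-0.41, -0.68 to -0.14) and 72 h (-0.52, -0.81 to -0.23). GRB10, a receptor adaptor gene 217.5 kb upstream whose promoter has 1 loop, had 25.3, 36.7, 36.5, 78.6 and 68.4, higher than vehicle at each time and most at 16 h (1.64, 1.29 to 1.99).

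The body of OPRK1 also held loops that its promoter did not share. These 27 loops were mostly of the H3K27ac set (21 alone), where the promoter loops were all of the H3K4me3 set. Their H3K27ac contact was 43.5 at 0 m, 24.1 at 30 m, 36.1 at 4 h, then 25.5 at 16 h and 26.6 at 72 h, the vehicle value the highest. The changes were -0.85 at 30 m (-1.20 to -0.50), -0.27 at 4 h (-0.60 to 0.06), -0.77 at 16 h (-1.13 to -0.41) and -0.71 at 72 h (-1.09 to -0.34). Lower changes were found in 3.88% of gene bodies at 30 m, 10.4% at 4 h, 4.97% at 16 h and 5.22% after 72 h. Most of this contact came from 17 loops of an anchor 21.7 kb downstream of the start, with 35.3, 19.4, 27.6, 20.4 and 20.8. With H3K4me3 the same 27 loops held 3.95, 8.2, 5.55, 11.4 and 11.5, from 14 to 70 read pairs, and vehicle was the lowest. At MET the body loops (26) gave H3K27ac contacts of 15.3, 14, 19, 11.3 and 12.9 and intervals that held 0 at each time.

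The bins at the other ends of the promoter loops were searched for a loose form of the androgen response element, GNACA and TGTNC with any 3 bases between them, which reads alike on both strands. At least 1 match was found in 7 of 52 bins at CAMK2N1 (13.5%), 4 of 33 at OPRK1 (12.1%), 1 of 6 at MET (16.7%) and 3 of 71 at SERPINI1 (4.23%), and in 6.51% of all bins with an anchor. No match lay in the bins of the 5 starts or in the 250 bases upstream of them, where 0.287% of promoters have one. Matches at the 12 best counted loops of each gene, OPRK1 aside, are given with 5 bases on either side and the matched letters in capitals, to show what lies at the far ends.
CAMK2N1 loop of 220 kb, chr1:20593334-20593346: ccacaGCACAGCTTGTCCcaggg
MET loop of 115 kb, chr7:116427326-116427338: tccaaGAACATACTGTTCattca
Neither match lies in an annotated exon, and the MET one is within the gene. The CAMK2N1 loop (134 read pairs over both marks and all times) had H3K27ac changes of -0.43 at 30 m, -0.57 at 4 h, -1.47 at 16 h (-3.02 to -0.06) and -0.38 at 72 h. At 30 m, 4 h and 72 h the interval held 0. The change at 16 h came from 14 read pairs at 0 m and 7 at 16 h, too few for a call. The MET loop had 10 read pairs in all. A match to these letters is no evidence of binding.

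The nearest promoters on either side of the remaining genes were few. CAMK2N1 had 14 other protein-coding starts within 500 kb, of which 11 had loops. MUL1, a mitochondrial ubiquitin ligase gene 21.94 kb upstream, had an H3K27ac contact of 11.5 at 0 m, 9.18 at 30 m, 13 at 4 h, then 3.82 at 16 h and 6.58 at 72 h, lower than vehicle at 16 h (-1.58, -2.48 to -0.74) and 72 h (-0.80, -1.59 to -0.04). VWA5B1 on the other side had 0 loops. OPRK1 had 1 neighbour, the neuropeptide receptor gene NPBWR1, with 10.9, 8.1, 10.5, 13 and 12.6 and intervals that held 0. GOLIM4, a Golgi protein gene 360.2 kb downstream of SERPINI1, had 3.23, 1.08, 1.5, 1.27 and 2.37.

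The promoters whose 10 values were most like those of each gene were found by Pearson's r of log2 contact, centred within each mark, over the 11445 promoters with at least 500 read pairs. They were FAT1 (0.935), SDC2 (0.916) and CCDC85A (0.904) for OPRK1 and GPBP1L1 and TMEM69 (0.946 each, sharing loops) and ALG14 (0.928) for CAMK2N1. For SERPINI1 they included RSF1 and AAMDC (0.936 each), and for MET, on 141 read pairs, they were RGL1 (0.921), POLR2K (0.889) and MAN1A2 (0.886). The points share their libraries, and the best of so many promoters is high by selection.

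Other genes that androgen is known to repress gave a point of reference. Of 7 such genes (FOLH1, UGT2B15, UGT2B17, CLU, CCN3, ACKR3 and BCHE), 5 had at least 50 read pairs with H3K27ac. At 30 m 3 of the 5 were lower (FOLH1, UGT2B15 and BCHE) with a list median of -0.61, where 3.21% of all promoters were lower and the median promoter changed by 0.27. At 4 h 0 were lower (list median -0.22, background 0.999%), at 16 h 1 (-0.12, 7.97%) and at 72 h 3 (-0.65, 5.82%). With equal totals 2 were lower at 16 h (UGT2B15 and BCHE), and the other H3K27ac counts of lower genes were the same, beside 4.7%, 1.62%, 17.2% and 10.5% of promoters in order of time. BCHE, butyrylcholinesterase, had the lowest change, from 126 at 0 m to 30 at 30 m, 103 at 4 h, then 66 at 16 h and 47.4 at 72 h. FOLH1, prostate-specific membrane antigen, went from 293 at 0 m to 192 at 30 m, 241 at 4 h, then 421 at 16 h and 278 at 72 h, so that it was above vehicle at 16 h. With H3K27ac, CCN3, a secreted matrix protein, was the only one higher, at 16 h and 72 h (1 of 5 each, where 18.5% and 17.9% of promoters were), and with equal totals at 72 h alone. With H3K4me3, CLU was lower at 30 m (1 of 3, background 1.36%), and CCN3 and BCHE were higher at 4 h (2 of 5, background 14.8%, or 5.87% with equal totals). BCHE had most of its read pairs from the deepest library, that of 4 h, and reached 50 read pairs in that comparison alone. At 16 h 2 of 4 were higher with H3K4me3 (background 3.91%), or 1 of 4 with equal totals (1.73%). FOLH1 was higher (0.62, 0.36 to 0.89), but not by 1.5-fold with equal totals. UGT2B15 was higher at 16 h too, but reached 50 read pairs only through that time and had an interval that held 0 (0.78, -0.09 to 1.71). At 72 h 0 of 3 were lower or higher with H3K4me3 (background 6.03% and 1.39%).

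Of 13 genes that androgen is known to induce, KLK3 and FKBP5 among them, 11 had at least 50 read pairs. At 4 h 3 of the 11 were higher with H3K27ac, where 3.71% of promoters were, and 5 with H3K4me3, where 14.8% were. With equal totals these became 2 (background 2.58%) and 1 (5.87%), the latter near its background. At 72 h 1 was higher with H3K27ac (background 17.9%) and 1 with H3K4me3 (1.39%), and KLK3 was lower with H3K27ac (5.82%). With equal totals 0 were then higher and 2 lower with H3K27ac (9.3% and 10.5%). At 30 m 0 were higher with H3K4me3 (0.872%). At 16 h 6 of the 11 were higher with H3K27ac, with a median of 0.67, where 18.5% of all promoters were. With equal totals this became 3 of 11 and a median of 0.43, where 7.92% of promoters were higher. With H3K4me3 7 of the 11 were higher at 16 h on both scales, with a median of 0.84, or 0.71 with equal totals, beside 3.91% and 1.73% of promoters. At the same time and on both scales 0 of the 2 repressed genes with enough H3K27ac read pairs (CAMK2N1 and SERPINI1) and 0 of the 3 with enough H3K4me3 read pairs were higher. At 30 m with H3K27ac, 2 of the 11 induced genes were higher and 0 lower (background 18.8% and 3.21%), or 2 and 1 with equal totals (12.3% and 4.7%). With TMM the share of higher genes was near that of all promoters, and the list median of 0.17 lay under the 0.27 of the median promoter.

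The calls among the partners of the 5 products in their pathways are given here with TMM. With equal totals the calls of CBL, SPINT2 and PLAU were lost, and PDYN and MST1R at 4 h with H3K4me3, and MAOA at 30 m and CAMK2B at 16 h and 72 h with H3K27ac, became lower. Of the opioid receptor and ligand genes OPRM1, OPRD1, OPRL1 and PDYN, only 1 had enough H3K27ac read pairs and 0 were lower or higher with that mark. With H3K4me3 PDYN was lower at 16 h (1 of 2, background 0.52%), on the least read pairs that a call requires, and OPRL1 at 72 h (1 of 2, background 6.03%). Of the 5 monoamine genes TH, DBH, TPH1, SLC18A2 and MAOA, 4 had loops and 0 were lower or higher in either mark, with 1 or 2 of them at 50 read pairs. Of 8 genes around MET (HGF, MST1R, GAB1, GRB2, CBL, SPINT1, SPINT2 and ST14), the ligand HGF had 0 loops and 0 were lower in either mark. GAB1, the docking protein of MET, was higher with H3K27ac at 30 m, 16 h and 72 h, from 19.7 at 0 m to 47.8 at 16 h (1.28, 0.88 to 1.69). CBL was higher with H3K27ac at 30 m and 72 h and GRB2 at 4 h, with intervals that held 0, and SPINT2 at 16 h. Of the 6 with enough H3K27ac read pairs, 2 were thus higher at 30 m (background 18.8%) and 1 at 4 h (3.71%), then 2 at 16 h (18.5%) and 2 at 72 h (17.9%). Of the CaMKII genes CAMK2A, CAMK2B, CAMK2D and CAMK2G and the other inhibitor CAMK2N2, only CAMK2D had a call, higher with H3K4me3 at 72 h (1 of 4, background 1.39%). Of PLAT, the target of neuroserpin, PLAU, SERPINE2 and SERPINI2, only PLAU had one, higher with H3K4me3 at 4 h (1 of 1, background 14.8%), with an interval that held 0 and with 50 read pairs reached only through that time, the deepest library. PLAT had 0 loops.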

How the data were processed

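The 15 labelled HiChIP samples were grouped by mark and time point. Per the labels and the methods of the study, the authors trimmed reads with Trim Galore 0.5.0, aligned them to hg19 with Bowtie2 in HiC-Pro 3.1.0, called loops once per mark with FitHiChIP on merged reads, and scaled contact among time points by TMM. The deposited contact is a signal, 1 value per loop, mark and time point. It is not stated whether both H3K27ac replicates entered it. For each mark and time point, 100% of values were whole multiples (within 0.01 of a step) of the value of 1 read pair, and read pairs were recovered by division. With 1 value per group no count test was possible.

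From the 10 tables, the 296326 H3K27ac and 278491 H3K4me3 loops were reduced to 505995 different anchor pairs. Contact was summed over the loops of each of 19863 protein-coding promoters. Intervals of ratios are Clopper-Pearson and those of levels Poisson, at 95%. A call needs a 1.5-fold change and 50 read pairs. The alternatives varied scaling, promoter window, transcript start, loop set, loop length, weak loops, the strongest loop, the fold and the minimum of read pairs. The genes and lists were chosen with earlier results of these data known. Named beside the 5 genes are up to 3 genes on the loops of each by read pairs, the nearest promoter on each side within 500 kb, up to 3 promoters most alike, and the lists, of which some genes are not reported here. Calculations were tested on simulated data. Python 3.11.15, numpy 2.4.6, pandas 2.3.3, scipy 1.17.1 and matplotlib 3.10.9 were used.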

Additional observations from a re-analysis of the deposited data

How the results depend on the processing

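The 4 calls of OPRK1 rest on the anchor of its bin: with a window of 1 kb to each side of its start, OPRK1 had no loops and the count lower with H3K27ac at 30 m, lower with H3K4me3 at 4 h, and higher with H3K4me3 at 30 m and at 72 h was 0 in each case. At 2-fold, the count was 0 for lower with H3K27ac at 30 m and for higher with H3K4me3 at 30 m and 72 h. The count with H3K27ac at 30 m was also 0 with only loops of the mark's own set, in which OPRK1 has none, and with the strongest loop left out, where the change was -1.03 but the read pairs were 45, under the minimum. Without a minimum of read pairs, an alternative chosen after the data were seen, the count lower with H3K27ac was 2 at 30 m (OPRK1 and MET), 1 at 4 h, 2 at 16 h and 2 at 72 h, and lower with H3K4me3 at 30 m it was 1. Scaled to equal totals of read pairs, the H3K27ac change of CAMK2N1 at 16 h was -0.32 in place of -0.07. Equal totals and loops of 20 kb or more left all 16 counts as they were. With equal totals the H3K4me3 changes at 4 h of CAMK2N1 (-0.01) and SERPINI1 (-0.08) and at 16 h of CAMK2N1 (-0.07) turned sign, and with equal totals no called change did. With the loops of every annotated start, the H3K27ac change of MET at 16 h was -1.24 in place of -1.97, and with only its 1 loop under 20 kb, on 6 read pairs, the H3K4me3 change of MET at 72 h was -1.04 in place of 0.31. No paired analysis was possible because the tables carry 1 value per mark and time point and no replicate number, and for the same reason no replicate could be left out. Depth limits MET and the H3K27ac contact of OPRK1 most.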
